A study of Mus musculus with 6 samples.

Results

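Acyl-CoA thioesterases cut the thioester bond between a fatty acid, or another acyl group, and coenzyme A, which releases the free acid and free coenzyme A. They work against the acyl-CoA synthetases, which make that bond, and so help to set how much acyl-CoA a compartment of the cell holds. The members described here are 7 of the 55385 genes in the table, Acot1, Acot2, Acot3, Acot4, Acot8, Acot12 and Acot13, matched by gene symbol. The family was chosen by values already known from these libraries: the lower level of Acot3 after acetaminophen was among the largest falls in wild-type liver. Values from acetaminophen against saline in wild type are therefore given as a description, without p-values for the members.

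The livers came from 6 C57BL/6 mice aged 6 weeks, 2 in each of 3 groups, and poly(A) RNA was sequenced as paired ends. Controls were wild-type mice given 200 µL of phosphate-buffered saline by intraperitoneal injection (replicates 3 and 6). The treated groups were wild-type mice (replicates 1 and 4) and Optn-/- mice (replicates 4 and 5), each injected with acetaminophen at 500 mg/kg, a dose that injures the liver. All livers were taken at 6 h. Optn encodes optineurin, an autophagy receptor. No Optn-/- mice without acetaminophen were analysed here, and the labels do not say how the knockout was made, so the treated knockout differs from the saline group in both genotype and treatment.

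In the mouse, the genes of the type I family lie side by side on chromosome 12 and encode closely related proteins that are sent to different places. Acot1 is cytosolic and Acot2 mitochondrial, while Acot3 and Acot4 are peroxisomal, Acot3 acting on medium-chain and long-chain acyl-CoAs and Acot4 on succinyl-CoA. The type II enzymes have another fold: Acot8 is a peroxisomal enzyme of broad range that also accepts bile acyl-CoAs, Acot12 is a cytosolic acetyl-CoA hydrolase, and Acot13 (also called Them2) is a long-chain acyl-CoA thioesterase associated with mitochondria. In liver, several type I genes are known targets of PPAR-alpha, the nuclear receptor that senses fatty acids and is active in fasting.

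Acot1 and Acot2 are close copies, and how far a short read can tell them apart bears on every value of this pair. The coding sequences were 95.2% identical over 1239 aligned bases, with 59 mismatches. The 90-base window that differed most, with 14 differing bases, is shown first in each copy, and capitals mark the differing bases. It lies in exon 3 of both genes, at chr12:84016916-84017005 in Acot1 and chr12:83992638-83992727 in Acot2 (GRCm38, plus strand).
Acot1: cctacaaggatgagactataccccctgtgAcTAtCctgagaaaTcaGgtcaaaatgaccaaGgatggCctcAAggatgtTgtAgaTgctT
Acot2: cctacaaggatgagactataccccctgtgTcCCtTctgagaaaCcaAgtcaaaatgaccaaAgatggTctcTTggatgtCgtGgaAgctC
Directly after it comes the longest stretch that the copies share, 273 bases without a difference, at chr12:84017006-84017278 in Acot1 and chr12:83992728-83993000 in Acot2. A read that falls inside this stretch fits both genes.
Acot1 and Acot2: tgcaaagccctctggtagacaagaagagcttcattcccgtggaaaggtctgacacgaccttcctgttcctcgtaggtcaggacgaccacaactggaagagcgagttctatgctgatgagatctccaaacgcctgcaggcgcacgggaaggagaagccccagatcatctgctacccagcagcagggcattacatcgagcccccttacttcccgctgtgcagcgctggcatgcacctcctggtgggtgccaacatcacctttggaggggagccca

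Over whole transcripts of the GENCODE M21 annotation, 12.35% of the distinct 100-base windows of Acot1 also occurred in another gene, mostly Acot2. For Acot2 the share was 17.12%, all of it in Acot1. Acot3 had 13.8%, of which the larger share was with Gm49366, an annotated transcript that runs across Acot4 and Acot3 and has a count of 0 in every library. Acot4 had 0.34%, and Acot8, Acot12 and Acot13 had 0%. At 50 bases the shares rose to 19.17% in Acot1, 27.71% in Acot2, 19.12% in Acot3 and 4.53% in Acot4. How such reads were counted is not given in the sources used here, so the division of reads between Acot1 and Acot2 is uncertain, and among Acot1 to Acot4 the shares were lowest in Acot4.

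The cluster spans 123.5 kb of the plus strand of chromosome 12 (GRCm38), in the order Acot2 (chr12:83987861-83993873), Acot1 (chr12:84009490-84018371), Acot4 (chr12:84038379-84048601), Acot3 (chr12:84052144-84060402), Acot5 and Acot6. An antisense gene, 4732463B04Rik, overlaps Acot4 and Acot3 and had at most 96 counts in a library. Whether counting used strand is not given, so reads from this gene could not be told from theirs. Acot8 lies at chr2:164792765-164804882 on the minus strand, Acot12 at chr13:91741512-91786148 on the plus strand and Acot13 at chr13:24817948-24831540 on the minus strand.

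The stretches before the start sites are shown for 4 neighbours because 3 of them, Acot1, Acot3 and Acot4, were low together after acetaminophen while Acot2 was not. Each run is the 250 bases before the RefSeq start site (GRCm38.p6, plus strand), at chr12:84009252-84009501 for Acot1, chr12:84051894-84052143 for Acot3, chr12:84038129-84038378 for Acot4 and chr12:83987611-83987860 for Acot2. Capitals mark matches, on either strand, to the nuclear receptor half-site AGGTCA, the TATA box TATAAA, the CCAAT box CCAAT and the GC box GGGCGG.
Acot1: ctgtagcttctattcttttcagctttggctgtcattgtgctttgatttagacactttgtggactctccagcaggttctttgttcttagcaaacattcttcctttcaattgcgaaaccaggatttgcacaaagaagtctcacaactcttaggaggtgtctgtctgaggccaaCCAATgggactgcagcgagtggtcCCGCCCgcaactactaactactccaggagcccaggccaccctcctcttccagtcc
Acot3: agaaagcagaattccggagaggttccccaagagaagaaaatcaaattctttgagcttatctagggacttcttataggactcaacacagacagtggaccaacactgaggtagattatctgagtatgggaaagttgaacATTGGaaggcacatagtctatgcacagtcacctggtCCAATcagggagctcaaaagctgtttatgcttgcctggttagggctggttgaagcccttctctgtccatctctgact
Acot4: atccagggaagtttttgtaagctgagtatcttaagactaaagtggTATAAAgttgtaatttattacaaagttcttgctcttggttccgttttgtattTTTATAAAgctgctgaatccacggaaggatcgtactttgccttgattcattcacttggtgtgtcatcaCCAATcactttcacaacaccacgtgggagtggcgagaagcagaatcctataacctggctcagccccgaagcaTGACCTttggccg
Acot2: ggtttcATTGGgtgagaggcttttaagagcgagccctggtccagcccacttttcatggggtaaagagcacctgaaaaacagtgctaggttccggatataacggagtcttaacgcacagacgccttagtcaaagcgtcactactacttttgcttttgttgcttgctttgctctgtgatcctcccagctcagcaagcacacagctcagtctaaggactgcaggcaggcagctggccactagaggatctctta
The RefSeq table held 6 of the 7 members. In the 250 bases before the start, CCAAT was present in all 4 of these neighbours and in 33.85% of 32851 mouse promoters. It was also present in Acot8 among the other members matched and in the cluster gene Acot5. AGGTCA was present in Acot4 among the 4, in Acot12 among the other members matched and in the cluster gene Acot5, against 14.02% of promoters. TATAAA was matched 3 times in Acot4, where 2 of the matches overlap, and in none of the other 3, against 12.37% of promoters. GGGCGG was matched in Acot1 among the 4 and in Acot8 and Acot12 among the other members matched, against 32.74% of promoters. The direct repeat that PPAR-alpha is known to bind, AGGTCA and AGGTCA with any base between them, was in none of the matched members and in 0.03% of promoters, and a relaxed form with AGGNCA in both places was in none of them and in 0.34%. Pairwise, the 4 windows of 250 bases were 47.6% to 51.6% identical in alignments with gaps. Against family genes on other chromosomes they were 43.2% (Acot3 with Acot12) to 54.0% (Acot1 with Acot10) identical, so the neighbours were no more alike than that. Such matches describe these letters and say nothing about binding.

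Total counts were 59.1 to 77.3 M per library, where M stands for 1e6 counts. Optn was listed at 18.7 to 21.0 FPKM (fragments per kilobase of gene and per 1e6 counted) in the saline group, 9.17 and 9.19 in treated wild type, and 0.32 and 0.46 in the libraries labelled knockout. All 12 hepatocyte markers were detected in every library, at a sum of 114506 to 156367 CPM (counts per 1e6 of the library). Traces of other tissues divided the libraries. Skeletal muscle markers summed to 68.1 to 103.6 CPM in control replicate 3 and both treated wild-type libraries and to at most 1.01 elsewhere, where 6 to 9 of the 12 were at 0. Intestinal markers summed to 77.4 to 89.2 CPM in control replicate 6 and both knockout libraries (0 or 1 of 12 at 0) and to 38.3 to 61.1 elsewhere (5 or 6 at 0). The treated wild-type and knockout groups thus differed in tissue trace as well as in genotype, and these cannot be told apart in their comparison. In treated wild-type replicate 4, neuron markers summed to 147.5 CPM against 6.64 to 15.0 elsewhere. Red cell markers summed to 700 and 1109 CPM in the saline group and to 3962 to 9382 in treated libraries. Neutrophil markers summed to 2.99 and 7.91 CPM in the saline group and to 73.4 to 202 in treated libraries. The part of these traces in the results below was not tested.

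In saline-treated liver the family was dominated, per length of transcript, by Acot13 and Acot12. Acot13 had the highest level at 46.9 ± 5.80 FPKM (SD, n = 2 here and below), then Acot12 at 26.7 ± 1.04. Acot4 (8.46 ± 3.25) and Acot8 (6.24 ± 0.009) followed and overlapped each other. Acot1 (3.68 ± 1.92), Acot3 (2.51 ± 0.007) and Acot2 (2.51 ± 1.44) were lowest, and neighbours in that order overlapped. Acot12 and Acot13 together made 73.3% and 79.0% of the summed FPKM of the 7 genes in the 2 control libraries, 87.9% and 86.7% in treated wild type, and 81.4% and 83.7% in treated knockout. The 3 genes Acot1, Acot3 and Acot4 together made 17.4% and 12.4% in the controls, 4.82% and 2.74% in treated wild type, and 6.30% and 6.40% in treated knockout.

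**Figure D1:**
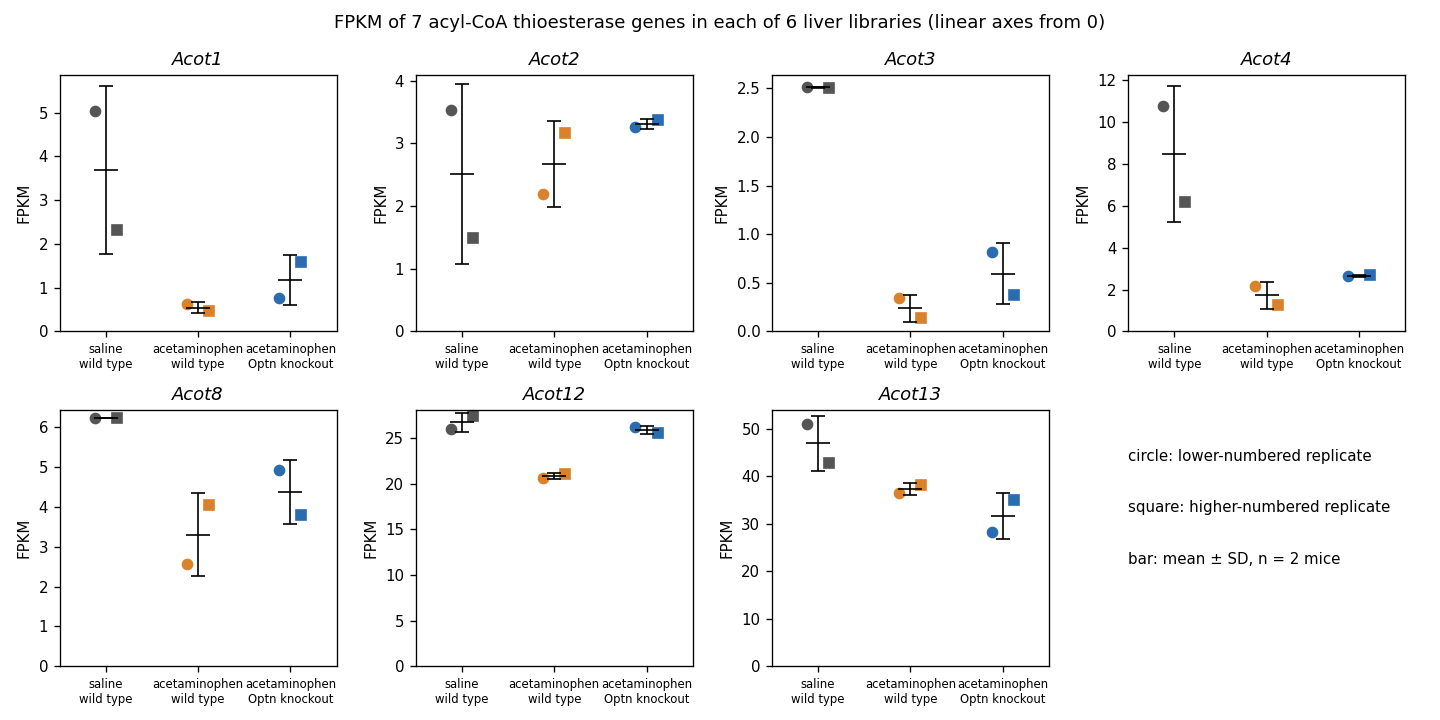
FPKM of each of the 7 genes (vertical axes, linear and starting at 0) in each library, grouped by treatment and genotype; circles and squares are the lower-numbered and higher-numbered replicates, and bars are the mean ± SD of 2 mice. Acot1, Acot3 and Acot4 were high in both controls, lowest in both treated wild-type libraries and between these in both knockout libraries, whereas Acot2 overlapped between the controls and each treated group.

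Acetaminophen against saline in wild type. Acot1, Acot3 and Acot4 were 4.25-fold to 8.89-fold lower in treated than in control wild-type liver in the edgeR fit, and the other 4 members differed by at most 1.64-fold. All 7 members passed the filter on low values. Acot3, at a mean of 0.24 FPKM in treated wild type and 0.60 in treated knockout, did so only through its 2.51 in the controls. In the fit, 3 of the 7 members were called lower (adjusted p under 0.05) and 0 higher. Among all 11677 genes tested, 5.92% were called lower and 8.36% higher (14.3% in either direction), and because this comparison chose the family nothing is read from the members' count. The median log2 fold change of the members was -0.71 against 0.03 over all genes tested. In FPKM, 6 members had both treated libraries below both controls, and so did 45.1% of all genes tested, with 21.1% the other way.

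The cytosolic Acot1 was listed at 5.04 and 2.32 FPKM in control replicates 3 and 6, and at 0.63 and 0.46 in treated wild-type replicates 1 and 4. The groups did not overlap, although the 2 controls differed from each other by 2.17-fold. The log2 fold change was -2.53 ± 0.52 (SE), with a 95% interval from -3.81 to -1.25. Peroxisomal Acot3 stood at 2.52 and 2.51 FPKM in the controls and at 0.34 and 0.14 in the treated libraries. Its controls were nearly equal, and its log2 fold change of -3.15 ± 0.59 (interval -4.59 to -1.71) was the largest fall among the 7 members. These FPKM rest on 561 and 714 counts in the controls and on 84 and 38 in the treated libraries. Peroxisomal Acot4, the most abundant of the cluster in the controls, was listed at 10.8 and 6.16 FPKM in the controls and at 2.16 and 1.27 after treatment. Both treated values were below both controls, with a log2 fold change of -2.09 ± 0.37 (interval -2.99 to -1.18).

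Mitochondrial Acot2 did not share this. It was listed at 3.53 and 1.49 FPKM in the controls and at 2.18 and 3.16 in treated wild type. The treated values lie between the 2 controls, and the log2 fold change was 0.29 ± 0.43 (interval -0.76 to 1.34). Its sign turned to -0.21 without control replicate 6. Among the members outside the cluster, peroxisomal Acot8 was listed at 6.25 and 6.23 FPKM in the controls and at 2.57 and 4.04 in treated wild type, with no overlap and a log2 fold change of -0.71 ± 0.26. The cytosolic acetyl-CoA hydrolase Acot12 was listed at 26.0 and 27.5 FPKM in the controls and at 20.6 and 21.1 after treatment, a log2 fold change of -0.15 ± 0.11. Acot13 was listed at 51.0 and 42.8 FPKM in the controls and at 36.5 and 38.2 after treatment, a log2 fold change of -0.12 ± 0.16. For Acot12 and Acot13 the treated FPKM lay below both controls. FPKM is scaled to each library's total, whereas the fit used TMM factors of 1.09 and 1.11 in the controls and 0.92 to 0.98 in treated libraries; scaling by totals alone moved the median of all genes by -0.22. The log2 fold changes of these 2 genes were within that shift.

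**Figure D2:**
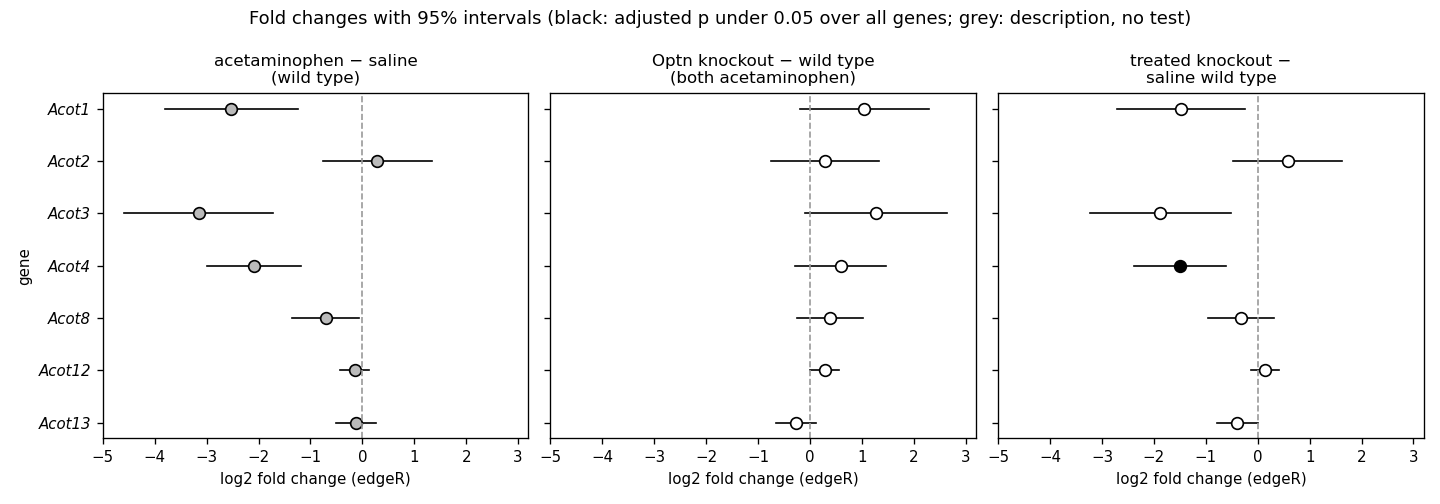
Log2 fold change (horizontal axis, edgeR, bars are 95% intervals) of the 7 genes in the 3 comparisons; in the 2 comparisons that include the knockout, black points passed an adjusted p of 0.05 over all genes tested, and grey points in the comparison in wild type, which chose the family, carry no test. In the comparison of acetaminophen with saline, Acot1, Acot3 and Acot4 lie at -2.53, -3.15 and -2.09; in the comparison of genotypes after acetaminophen no point is black.

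That count rested on single libraries: it was 0 without control replicate 3 or without treated wild-type replicate 4, and 2 when any of the other 4 libraries was left out or with the tissue trace set as a term. The direction was the same in all of these fits, and the log2 fold changes without a library ranged from -2.99 to -1.84 for Acot1, -3.95 to -2.64 for Acot3 and -2.55 to -1.61 for Acot4.

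Within a library, the balance of the 2 near-identical genes differed between the groups. The ratio of Acot1 to Acot2 FPKM was 1.43 and 1.56 in the controls, 0.29 and 0.15 in treated wild type, and 0.24 and 0.47 in treated knockout. Both controls were above 1 and all 4 treated libraries below it. This ratio was close in the 2 controls although each gene differed between them, Acot1 by 2.17-fold and Acot2 by 2.36-fold. The ratio of Acot4, which shares almost no long windows, to Acot2 was 3.05 and 4.13 in the controls, 0.99 and 0.40 in treated wild type, and 0.81 and 0.80 in treated knockout. With the counts of Acot1 and Acot2 summed into a joint feature, the log2 fold change of treated against control wild type was -1.11, and with the 6 genes Acot1 to Acot6 summed it was -1.79.

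**Figure D3:**
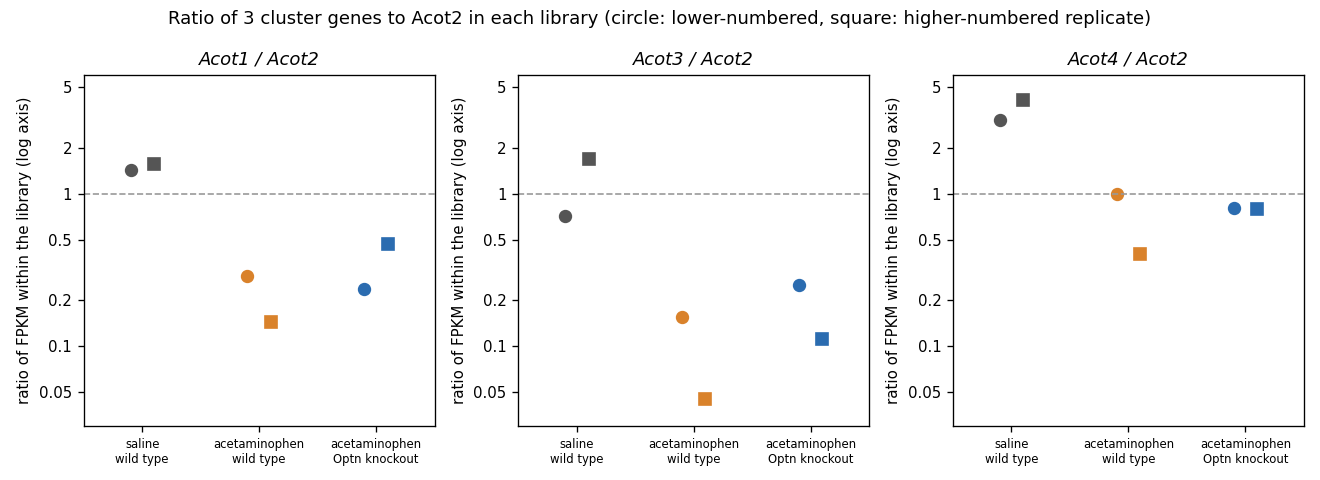
Ratio of the FPKM of Acot1, Acot3 and Acot4 to that of Acot2 within each library (vertical log axis; dashed line at 1), by group, with circles and squares for the lower-numbered and higher-numbered replicates. The ratio of Acot1 to Acot2 is 1.43 and 1.56 in the controls and 0.15 to 0.47 in the 4 treated libraries.

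Knockout against wild type, both after acetaminophen. This comparison asks whether loss of Optn goes with another level of these genes in injured liver. The treated wild-type libraries are those whose low Acot3 values chose the family, so the differences below are not independent of that choice. Acot1, Acot3 and Acot4 were higher in both knockout libraries than in both treated wild-type libraries, by 2.07-fold, 2.42-fold and 1.51-fold, but no member passed the edgeR test. Of the 7 members, 0 were called higher and 0 lower, against 0.0514% of all genes tested in each direction (0.103% in either). At an unadjusted p under 0.05, 1 member (Acot12) and 1024 of all 11677 genes passed, and 0 members were called by DESeq2 or limma. In FPKM, 5 members had both knockout libraries above both treated wild-type libraries, against 23.1% of all genes, and 1 (Acot13) had both below, against 15.9%. The median log2 fold change of the members was 0.38 against -0.0006 over all genes.

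Acot1 was listed at 0.77 and 1.58 FPKM in knockout replicates 4 and 5, above the 0.63 and 0.46 of treated wild type. The edgeR fit gave 1.05 ± 0.50 on the log2 scale at an adjusted p of 0.627, and its interval, from -0.19 to 2.28, includes 0. Acot3 was listed at 0.81 and 0.38 FPKM, against 0.34 and 0.14. The nearest values of the groups were close, and the fit gave 1.28 ± 0.56 on the log2 scale (interval -0.09 to 2.64, edgeR adjusted p 0.598). Acot4 was listed at 2.63 and 2.68 FPKM, against 2.16 and 1.27, or 0.59 ± 0.36 on the log2 scale (interval -0.29 to 1.47, edgeR adjusted p 0.693). In each of these 3 genes the knockout libraries thus lay between treated and control wild type.

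Leaving out a library changed the size of these differences. The log2 fold change ranged from 0.47 (without knockout replicate 5) to 1.46 (without knockout replicate 4) for Acot1. For Acot3 it ranged from 0.59 (without knockout replicate 4) to 2.07 (without treated wild-type replicate 1), and for Acot4 from 0.24 to 1.06 (without treated wild-type replicates 4 and 1). With the tissue trace set as a term it was 2.19 for Acot1, 1.31 for Acot3, 1.43 for Acot4 and 1.55 for Acot2 (0.29 without the term), none of them called. That term rests on the difference between the 2 controls.

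Acot2 was listed at 3.25 and 3.37 FPKM in the knockout libraries, just above the 2.18 and 3.16 of treated wild type (0.29 ± 0.43 on the log2 scale, edgeR adjusted p 0.881). Acot8 was listed at 4.94 and 3.81 FPKM, overlapping the 2.57 and 4.04 of treated wild type (0.38 ± 0.26, edgeR adjusted p 0.727). Acot12 was listed at 26.2 and 25.6 FPKM against 20.6 and 21.1, with no overlap and little spread (0.28 ± 0.11, interval 0.008 to 0.56, edgeR adjusted p 0.555). Acot13 was listed at 28.2 and 35.1 FPKM against 36.5 and 38.2, the only member with both knockout libraries lower (-0.27 ± 0.16, edgeR adjusted p 0.677). Its sign turned to 0.01 with the tissue trace set as a term.

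Treated knockout against saline wild type. Treatment and genotype differ together here, and the controls are those of the comparison in wild type, so the values stand beside the others and are no separate evidence. Acot4 fell, from 10.8 and 6.16 FPKM in the controls to 2.63 and 2.68, a change of -1.49 ± 0.36 on the log2 scale (edgeR adjusted p 0.0373). It was the only member called, so 1 of 7 was lower and 0 were higher, against 8.05% of all genes called lower and 12.2% higher (20.3% in either direction). Acot4 was not called without control replicate 3, without either knockout replicate, or with the tissue trace set as a term, where edgeR adjusted p was 0.139 to 0.166. In FPKM, 5 members had both knockout libraries below both controls, against 44.5% of all genes, and 24.3% of all genes had both above. The median log2 fold change was -0.39 for the members and -0.002 over all genes.

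On the log2 scale, Acot1 differed by -1.48 ± 0.50 (edgeR adjusted p 0.091) and Acot3 by -1.88 ± 0.55 (edgeR adjusted p 0.0636), with no overlap of the groups in either gene. DESeq2 called both (adjusted p 0.0187 and 0.00537). Acot3 passed the filter on low values only through its level in these controls, so its p-values are no separate support. Without control replicate 3 the log2 fold change of Acot1 was -0.80. Acot13 had -0.39 ± 0.16 (edgeR adjusted p 0.139) and Acot8 -0.33 ± 0.26 (edgeR adjusted p 0.413). Both limma fits called 3 members, Acot3, Acot4 and Acot13, and did not call Acot1. Acot2 had 0.58 ± 0.43 (edgeR adjusted p 0.386), which became 1.34 without control replicate 3 and 0.07 without control replicate 6. With the tissue trace set as a term it was also 1.34 (edgeR adjusted p 0.0736). That term leaves control replicate 6 as the reference here, so it is no separate check. Acot12 had 0.14 ± 0.11 (edgeR adjusted p 0.431), which became -0.05 when libraries were scaled by total counts alone.

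**Figure D4:**
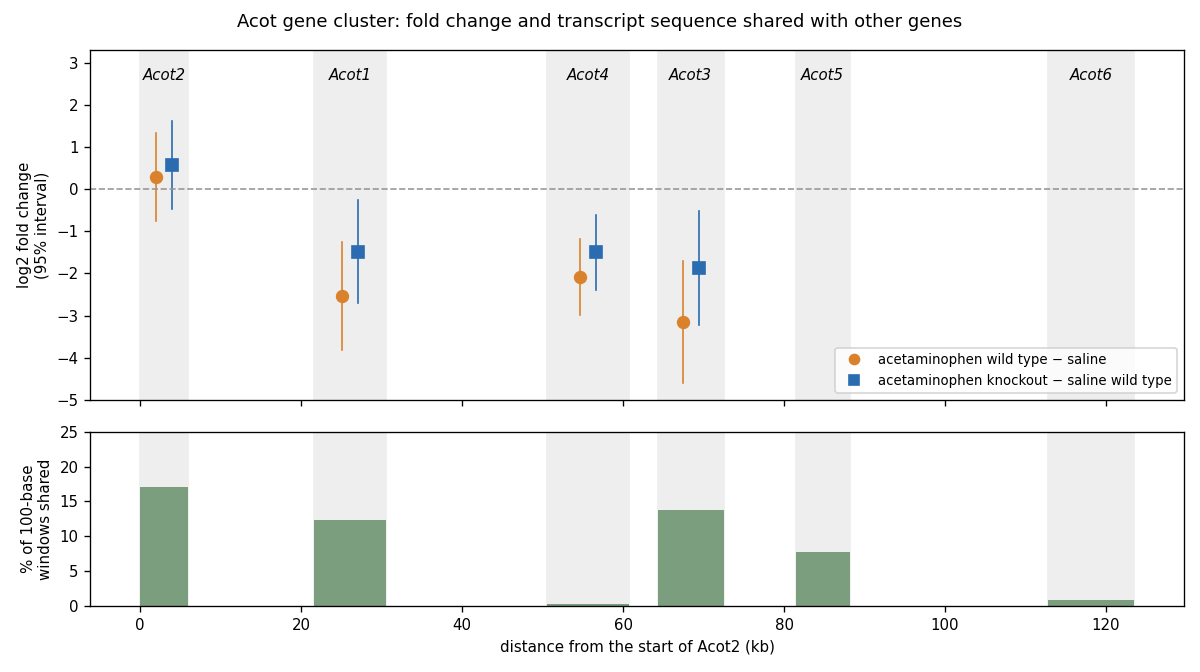
Upper panel, log2 fold change with 95% interval of the cluster members against saline wild type, in treated wild type (circles) and treated knockout (squares), by distance in kb from the start of Acot2; grey bands are the genes. Lower panel, percent of each gene's 100-base transcript windows that occur in another gene. Acot2, at the left end, has fold changes of 0.29 and 0.58, and Acot1, Acot4 and Acot3 lie between -3.15 and -1.48. Acot5 and Acot6 were below the filter and have no point.

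The other members of the family differed among themselves. Acot5, the next gene of the cluster, had 0 counts in both controls, 37 and 23 in treated wild type and 65 and 27 in treated knockout. Against a floor of 3 counts per control library, it was at least 9.80-fold higher in treated wild type and at least 14.1-fold higher in treated knockout. It lies below the filter, and in a fit of 27227 genes with any count edgeR adjusted p was 0.0189 and 0.0108, and 0.969 between the treated groups. Acot5 enters that fit only through the treated groups, where it is high, so the p-values against control are no support for a rise. At 50 bases, 22.11% of the transcript windows of Acot5 occur in another gene. Acot6 had 25 to 81 counts per library and edgeR adjusted p of at least 0.794 in every comparison of that fit.

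Of 6 other thioesterase genes tested, 1 was called higher and 2 lower in treated wild type against control (8.36% and 5.92% of all genes). Acot9, a mitochondrial enzyme, rose from 0.84 and 0.87 FPKM to 1.90 and 1.66 (1.26 ± 0.24 on the log2 scale, edgeR adjusted p 0.0240), and stood at 2.39 and 2.56 in treated knockout. Acot11 fell from 1.35 and 1.15 FPKM to 0.23 and 0.43 (-1.71 ± 0.35, edgeR adjusted p 0.0299), and stood at 0.26 and 0.29 in treated knockout. The mean FPKM of Acot11 was 1.25 in the controls, 0.33 in treated wild type and 0.28 in treated knockout. It thus passed the filter on low values only through its level in the controls. Them4, another mitochondrial thioesterase, fell by 1.24 ± 0.22 on the log2 scale (edgeR adjusted p 0.0215). None of the 6 was called between the treated groups, where 1 (Acot7) had an unadjusted p under 0.05. Against control (12.2% of all genes higher and 8.05% lower), treated knockout had 1 of the 6 higher (Acot9, 1.70 ± 0.24) and 3 lower (Them4 -1.32 ± 0.22, Acot11 -1.97 ± 0.35 and the bile acid conjugating enzyme Baat -0.77 ± 0.15), with edgeR adjusted p of 0.00813 to 0.0219. Acot7, which is abundant in brain, stood at 12.6 and 12.2 FPKM in the controls and at 8.27 in treated wild-type replicate 1. In replicate 4, the library with the neuron markers, it was above both controls, and the log2 fold change was -0.02 ± 0.21. With the tissue trace set as a term, 0 of these 6 genes were called in treated wild type against control, while the log2 fold changes were 1.26 ± 0.34 for Acot9, -1.83 ± 0.43 for Acot11 and -1.20 ± 0.29 for Them4. In the same fit 1 was called higher and 0 lower in treated knockout against control.

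Next come genes that make acyl-CoA and burn it, whose counts in treated wild type stand against 5.92% of all genes called lower and 8.36% called higher. Of 15 acyl-CoA synthetases tested, 0 rose and 3 fell in treated wild type against control: Acsm5 (-0.96 ± 0.12), Acsm3 (-0.72 ± 0.13) and Acsl3 (-0.70 ± 0.16), with edgeR adjusted p of 0.00811 to 0.0399. Of 22 genes of peroxisomal fatty acid oxidation, 0 rose and 4 fell: the carnitine acetyltransferase Crat (-2.49 ± 0.49), the thiolase Acaa1b (-0.88 ± 0.20), the bifunctional enzymes Ehhadh (-0.86 ± 0.21) and Hsd17b4 (-0.62 ± 0.13), with edgeR adjusted p of 0.0268 to 0.0452. Of 18 genes of mitochondrial oxidation, 0 rose and 3 fell: the carnitine carrier Slc25a20 (-0.93 ± 0.17), Acad11 (-0.67 ± 0.12) and Eci1 (-0.66 ± 0.13), with edgeR adjusted p of 0.0217 to 0.0299. The medians of these lists were -0.17, -0.48 and -0.32, against 0.03 over all genes tested. Without treated wild-type replicate 4, the counts of genes that fell were 1, 1 and 0. Between the treated groups 0 genes of the 3 lists were called. Against control, where 8.05% of all genes were called lower and 12.2% higher, 1 synthetase fell in treated knockout (Acsm5, -1.23 ± 0.12, edgeR adjusted p 0.00310), peroxisomal Crot rose (0.94 ± 0.21, edgeR adjusted p 0.0294) and Nudt7, a peroxisomal coenzyme A diphosphatase, fell (-1.63 ± 0.39, edgeR adjusted p 0.0358).

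Coenzyme A itself is the other product of the reaction. Of 15 genes that make or break it down, 0 rose and 4 fell in treated wild type (8.36% and 5.92% of all genes): the vitamin transporter Slc5a6 (-1.46 ± 0.20), the synthesis enzyme Ppcs (-0.98 ± 0.16), the mitochondrial coenzyme A carrier Slc25a42 (-0.77 ± 0.16) and the pantetheinase Vnn1 (-2.19 ± 0.24), with edgeR adjusted p of 0.00608 to 0.0315. Of the 15, 4 also fell in treated knockout against control (8.05% of all genes): Ppcs (-0.98 ± 0.16), Slc5a6 (-1.05 ± 0.19), Slc25a42 (-0.75 ± 0.16) and Nudt7, which stands in the peroxisomal list too (edgeR adjusted p 0.0114 to 0.0358). With the tissue trace set as a term the counts that fell were 3 and 0. Between the treated groups 0 of 15 were called.

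Other known PPAR-alpha targets were called in both directions. Some of them, among them Vnn1, stand in the lists above too, so the counts of these lists are not separate. Of 21 tested, 5 rose and 7 fell in treated wild type against control (8.36% and 5.92% of all genes). Those that rose, named after their values were seen, were Fgf21 (4.61 ± 0.61), Pdk4 (2.32 ± 0.52), Cidec (2.05 ± 0.38), Plin2 (1.13 ± 0.15) and Angptl4 (0.84 ± 0.16), with edgeR adjusted p of 0.00965 to 0.0376. Among those that fell, the fatty acid omega-hydroxylases Cyp4a14 (-3.91 ± 0.41), Cyp4a10 (-2.97 ± 0.21) and Cyp4a31 (-2.25 ± 0.29) had edgeR adjusted p of 0.00207 to 0.00901. The list was drawn up with earlier results of these data known, so nothing is read from its share of calls. Between the treated groups 2 of 21 were called higher (0.0514% of all genes, and 0.103% in either direction). They were Cyp4a10 (3.51 ± 0.21, edgeR adjusted p 0.0103) and Cyp4a14 (4.77 ± 0.42, edgeR adjusted p 0.0401). These 2 calls became 0 without treated wild-type replicate 4, where Cyp4a10 differed by 3.35 ± 0.27 and Cyp4a14 by 4.60 ± 0.59, and with the tissue trace set as a term, where they differed by 3.68 ± 0.38 and 5.68 ± 0.52. Treated knockout against control (12.2% of all genes higher and 8.05% lower) had 7 of 21 higher and 1 lower (Fabp1, a fatty acid binding protein named after its value was seen, -0.82 ± 0.21, edgeR adjusted p 0.0442). Those with the smallest p were the lipid droplet genes Plin2 (1.97 ± 0.16) and Cidec (4.02 ± 0.41), the hormone Fgf21 (4.88 ± 0.61) and the lipase inhibitor Angptl4 (1.25 ± 0.16), with edgeR adjusted p of 0.00187 to 0.00633. Without treated wild-type replicate 4, the counts in treated wild type were 2 higher and 4 lower.

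Of 18 genes for PPAR-alpha and its partners, 3 rose and 0 fell in treated wild type (8.36% and 5.92% of all genes): the corepressor Nrip1 (1.86 ± 0.27), the deacetylase Sirt1 (1.30 ± 0.27) and the liver transcription factor Hnf4a (0.75 ± 0.17), with edgeR adjusted p of 0.0117 to 0.0370. Without treated wild-type replicate 4, 1 rose. Against control (12.2% of all genes higher and 8.05% lower), the same 3 were called higher in treated knockout (Hnf4a 0.67 ± 0.17, Nrip1 2.21 ± 0.27 and Sirt1 1.48 ± 0.27, edgeR adjusted p 0.00523 to 0.0390) and 2 fell, Rxra (-0.61 ± 0.12, edgeR adjusted p 0.0225) and Pparg (-1.42 ± 0.34, edgeR adjusted p 0.0362). With the tissue trace set as a term, 2 rose and 0 fell.

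Profiles over the 6 libraries were compared by the root-mean-square difference of log2 CPM after each gene was centred on its mean, as a description over libraries that share their groups. Within the cluster, Acot1 was closest to Acot4 (0.31) and farther from its near copy Acot2 (1.17). Acot3 was closer to Acot4 (0.44) than to Acot1 (0.65) or Acot2 (1.43). Acot12 and Acot13 differed by 0.29, which is more than the SD of either profile over the libraries (0.13 and 0.21). These profiles were therefore not alike. The SD of the Acot1 profile was 1.11, so its difference of 0.31 from Acot4 was small beside it. Sizes of this measure do not compare directly between genes that vary little and genes that vary much. Close profiles were sought among 3850 genes with a mean of at least 5 FPKM. Members, predicted genes, and genes whose names mark a pseudogene, clone or identifier were left out of these. Among the 3850, the closest to Acot3 were Inhbe (0.20), an activin subunit made in liver, the nuclear receptor Nr1i3 (0.39) and Inhbc (0.40). The closest to Acot4 were Fahd1 (0.26), Tgm1 (0.27) and Tedc2 (0.32), and to Acot1 Tgm1 (0.44), Nr1i3 (0.45) and G0s2 (0.45), an inhibitor of the lipase of lipid droplets. Nr1i3 had a mean of 55.7 FPKM in the controls, 9.67 in treated wild type and 13.5 in treated knockout, the order that Acot1, Acot3 and Acot4 had. The closest to Acot2 was Mocs1 (0.17), to Acot8 Cdc42bpb (0.11), to Acot12 Tcirg1 (0.056) and to Acot13 Bnip3 (0.039).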

How the data were processed

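Messenger RNA of 6 livers, 2 mice in each of 3 groups, was analysed from the whole-number counts per gene that the authors deposited without normalization, and from the deposited FPKM values beside them, in which each of the 207863 zero counts appears as 0.0001. The submitters' processing notes name Bowtie 0.12.2 and mm8. Gene positions match GENCODE M21 (GRCm38) for 51954 of 55144 genes (94.2%) and for every member, so positions are given as GRCm38. The counter and its use of strand are not stated in the labels.

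Counts were fitted with edgeR 4.0.16 (R 4.3.3), using its quasi-likelihood test, TMM scaling, 3 group means over all 6 libraries and no covariates. Genes with a mean of at least 0.5 FPKM (11677) were tested, with Benjamini-Hochberg adjustment over all of them and a threshold of 0.05, and the procedure was checked on simulated data. The fit had a common biological coefficient of variation of 0.277 and 3 residual plus 2.93 prior degrees of freedom. With 2 mice a group, the smallest two-sided p of an exact permutation test is 0.333, so none was run. DESeq2 1.42.0 and limma 3.58.1, on log2(FPKM + 0.5) or log2(FPKM + 0.1), were alternatives. Nothing in the labels says how the mice were raised or grouped, so p-values reflect only how these samples vary, which may be technical.

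Members, gene lists and tests were chosen with earlier results of these data known. The tissue trace sets come from those results as well, and list counts without treated wild-type replicate 4 or with that set as a term were added after seeing the data. Text names the 7 members, Acot5 to Acot7, up to 4 genes of smallest p in each of 7 lists, and the 3 closest profiles of each member among 3850 genes; some of these are left out for space. Pairs of replicates differed by more than sampling noise (mean chi-square per gene 77.7 to 185.1). Sequences were read from GRCm38 and the RefSeq promoter table, and coding sequences were aligned with Biopython 1.88. Floors for counts of 0 cover counting error only, whereas the 95% intervals of fold changes rest on the standard errors of the edgeR fit.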

Additional observations from a re-analysis of the deposited data

How the results depend on the processing

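No paired analysis was possible because the groups share at most 1 replicate number (number 4, in the treated groups), and the labels do not say what it stands for. Across the log2 fold changes of the members and their alternatives, 278 of 318 kept their direction and side of the threshold, 16 lost the call, 13 gained it and 11 turned sign; the cause was not tested except where named. For treated against control wild type, Acot2 turned to -0.21 with the tissue trace set as a term and without control replicate 6. These are no separate checks, since the term leaves control replicate 3 as the reference for treated wild type. In the same way it leaves control replicate 6 as the reference for treated knockout. Acot2 turned to -1.11 and -1.79 when counts were summed over Acot1 and Acot2 or Acot1 to Acot6. Such a sum holds more of Acot1 and Acot4. Leaving out libraries gave -0.21 to 1.06 for Acot2 and -0.256 to 0.0275 for Acot13, the last without control replicate 3. Acot13 turned to 0.0126 in knockout against wild type with the set as a term. For treated knockout against control, Acot12 turned to -0.053 with totals only and to -0.0439 and -0.0446 with limma at 0.5 and 0.1, and Acot2 to -0.58 and -1.19 with the same sums.

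Members called lower in treated wild type against control were 0 instead of 3 at a mean FPKM of at least 5, since the 3 genes are then not tested, and 0 to 2 leaving out each library in turn. In treated knockout against control, the count of 1 became 2 with totals only, no filter or the 2 groups alone, 3 with DESeq2 and both limma fits, 0 at FPKM of at least 5 or with the set as a term, and 0 to 2 leaving out libraries.

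Over all genes, 976 were called higher and 691 lower in treated wild type against control. Higher calls became 1684 (DESeq2), 463 (FPKM of at least 5) and 572 (set as a term), and lower calls 1497 (totals only), 1423 (DESeq2), 356 (FPKM of at least 5), 1496 and 1470 (limma at 0.5 and 0.1) and 240 (set as a term). Leaving out libraries gave 360 to 742 higher and 134 to 534 lower. The share of calls that were higher was 58.5%, and 32.6% with totals only. In treated knockout against control, 1426 higher became 600 (FPKM of at least 5) and 670 (set as a term), and 940 lower became 1768 (totals only), 1633 (DESeq2), 435 (FPKM of at least 5), 1841 and 1773 (limma) and 290 (set as a term). Leaving out libraries gave 534 to 1351 higher and 216 to 850 lower, and the higher share of 60.3% was 39.1% with totals only. Between the treated groups, 6 higher became 169 (DESeq2), 24 (no filter), 21 and 10 (limma), 20 (2 groups alone) and 3 (set as a term), and 6 lower became 122 (DESeq2), 13 (no filter), 10 (2 groups alone) and 0 (set as a term). Leaving out libraries gave 0 to 19 higher and 1 to 10 lower. Where leaving out a library left a lone sample, it was assumed to vary like the other groups.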
